A study of Mus musculus with 6 samples.

Results

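This comparison sets adipocytes that descended from transplanted bone marrow against the white adipocytes of the same fat depot. It holds 4 of the 6 arrays of a mouse study, chosen by their titles: 2 arrays of marrow-derived adipocytes and 2 arrays of gonadal white adipocytes. Mice were transplanted with marked bone marrow, and cells carrying the mark were later sorted by flow cytometry from the floating cells of their gonadal fat. Their donors carried green fluorescent protein in 1 sample (the GFP array, replicate 1) and beta-galactosidase in the other (the LacZ array, replicate 2). The gonadal white adipocytes came from the same kind of depot by the same digestion and flotation, and 2 arrays of brown adipocytes, labelled as intrascapular, complete the study. Each sample pooled the RNA of repeated sorts, and the labels name neither sex, age, strain nor the cells that the transplanted hosts kept. The marker reports descent from the donor and does not by itself name a cell type. The labels call the samples biological replicates without saying that they came from separate animals. A p-value here therefore sets a difference only against the spread among these samples, and that spread may be technical.

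Most adipocytes arise from mesenchymal progenitors that reside in the fat depot, next to its small vessels. Mature white adipocytes store triglyceride, release fatty acids on hormonal demand, secrete leptin and adiponectin, and take up and break down branched-chain amino acids. Whether cells of blood-forming origin can also become fat cells has been debated, because endothelial cells, macrophages and fragments of vessels can float or sort with adipocytes. The study sets expression in the marrow-derived cells beside that of conventional fat cells.

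All values below are log2 expression values per gene, so a difference of 1 is a factor of 2. The ± after a difference is its standard error from limma (n = 2 arrays per group). That error pools the spread within the marrow-derived, white and brown pairs, and limma draws it towards the spread typical of all genes. It is therefore not the spread of the compared arrays alone. Adjusted p-values are limma's with Benjamini-Hochberg adjustment over 17720 genes, and a gene rose or fell where that value was under 0.05. By this test 12.2% of all genes rose in marrow-derived against white adipocytes and 13.6% fell. A separate description, with no test, asks that the nearest arrays of the groups lie at least 2-fold apart. Upward 7.44% of genes met it and downward 7.43%, among them 25 and 56 genes that were not called. Every called gene had non-overlapping groups, so non-overlap adds nothing to a call. Of all 17720 genes, called or not, 5045 did not overlap upward and 6351 downward. In a fit of the marrow-derived and white arrays alone 1355 genes rose and 1372 fell, and 41 of the 261 named genes lost their calls. The calls numbered 899 higher and 850 lower without white replicate 2, and 1559 and 1577 without white replicate 1. The median difference over all genes was -0.07. After centring each array on its median over all probe sets this median moved by -0.17, and 36.6% of the called genes were then higher, against 47.4% with the deposited scaling, so small differences carry no settled direction.

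**Figure D1:**
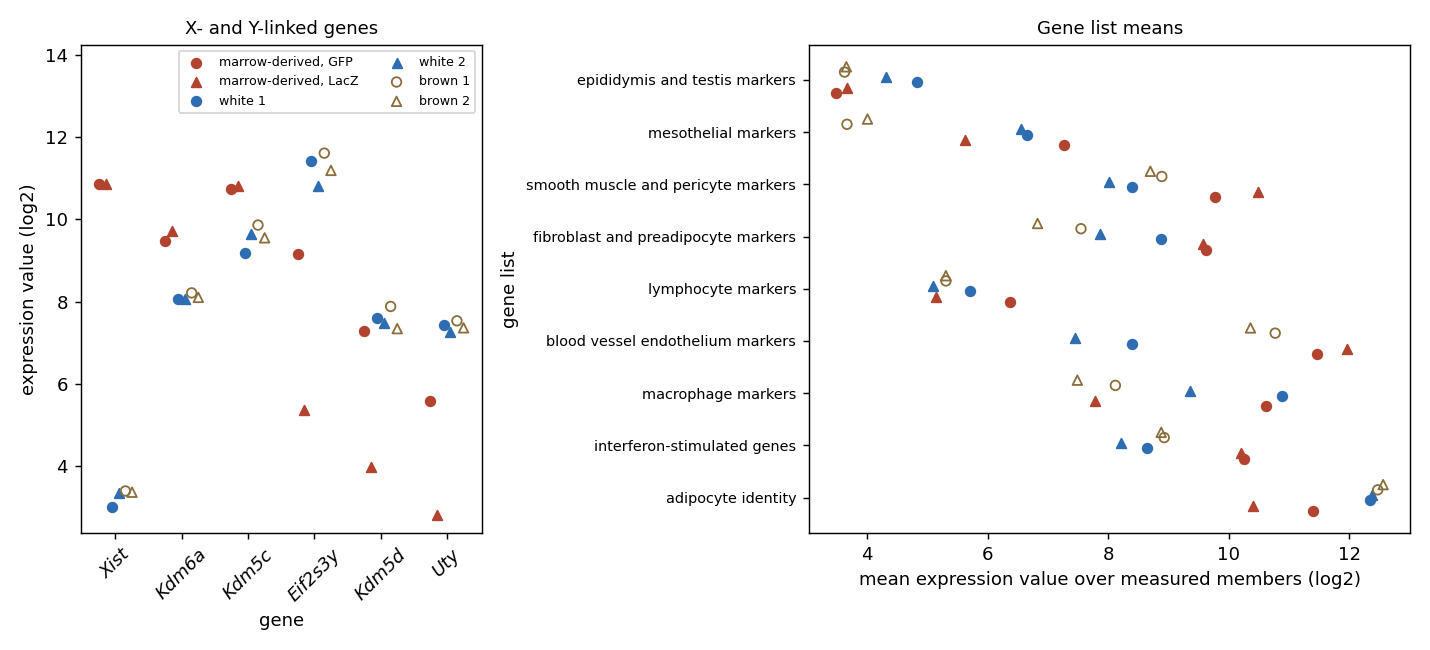
The left panel plots log2 expression of X- and Y-linked genes on each of the 6 arrays, and the right panel the mean log2 value over the measured members of 9 gene lists. Both marrow-derived arrays carry Xist near 10.9, the GFP array also carries Y-linked transcripts, and the macrophage mean splits both the marrow-derived and the white pair.

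The arrays differed in sex-linked genes and in markers of other cell types. Whether such cells were present in the samples was not tested. Xist, the RNA that coats the inactive X chromosome of female cells, stood at 10.87 on the GFP and 10.85 on the LacZ array, against 2.99 and 3.35 on the white arrays. The Y-linked gene Eif2s3y had 9.15 (GFP) and 5.35 (LacZ) in marrow-derived, against 11.43 and 10.80 in white adipocytes. The GFP array therefore held transcripts of both kinds, and sex cannot be told apart from cell origin in this comparison. X-linked genes as a whole were near the background, with 64 of 590 higher (10.8%) and 79 lower (13.4%). All 18 markers of blood vessel endothelium were higher, with mean values of 11.47 and 11.96 in marrow-derived, 8.39 and 7.45 in white and 10.77 and 10.36 in brown adipocytes. The mean of 24 macrophage markers was 10.61 (GFP) and 7.79 (LacZ) in marrow-derived, and 10.89 and 9.35 on the white arrays. In pooled RNA, fewer cells of a type and less RNA per cell cannot be told apart. Within pairs, 1931 genes differed at least 2-fold between the GFP and LacZ arrays and 1461 between the white arrays.

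**Figure D2:**
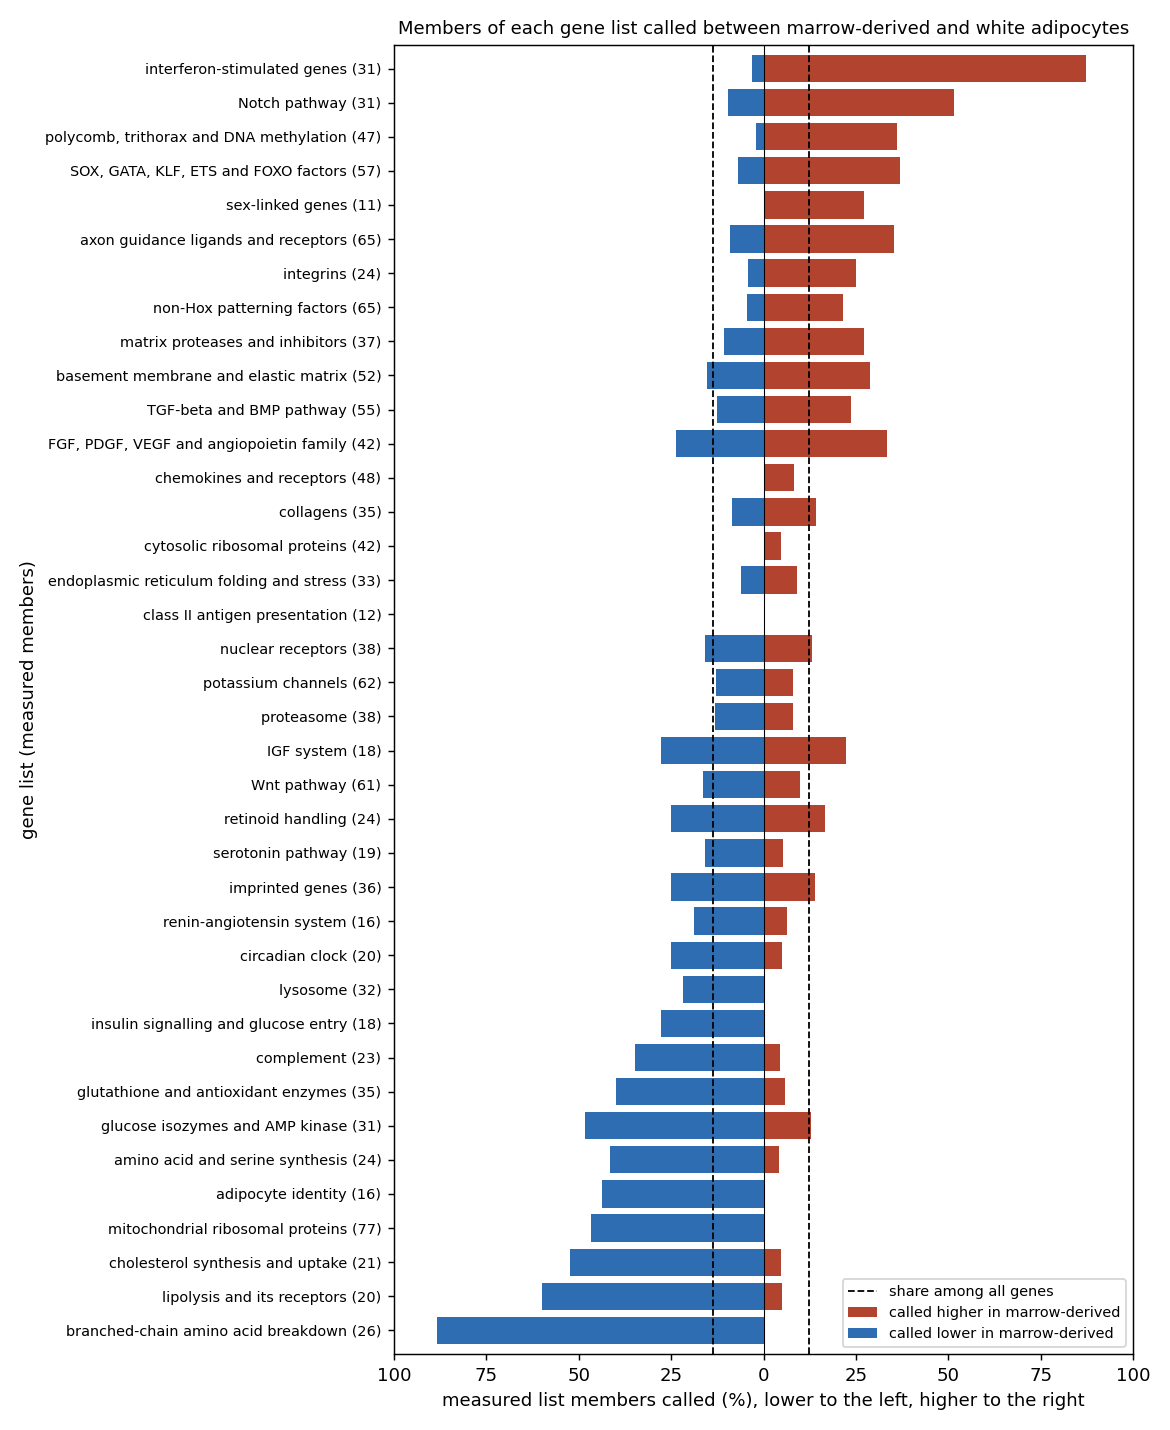
Bars give the percentage of the measured members of 38 gene lists called higher (right) or lower (left) in marrow-derived than in white adipocytes, with the number of measured members in brackets. The dashed lines mark the shares among all genes, 12.2% and 13.6%; interferon-stimulated genes (87.1% higher) and branched-chain amino acid breakdown (88.5% lower) lie at the ends.

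Interferon-stimulated genes were higher in marrow-derived adipocytes almost throughout. Interferons are antiviral cytokines that induce such genes, in part through Stat2 and Irf9, which act at response elements in their promoters. Of 31 measured members 27 rose and 1 fell, with a median difference of 1.95, and in 22 the nearest arrays lay at least 2-fold apart. List means were 10.26 (GFP) and 10.20 (LacZ) in marrow-derived adipocytes, against 8.64 and 8.22 in white and 8.93 and 8.88 in brown adipocytes. The list means of the GFP and LacZ arrays were close, although single members such as Mx1 and Oas3 were higher on the GFP array. Macrophage marker means on these arrays were 10.61 and 7.79, vessel marker means 11.47 and 11.96, and the part of either cell type in the result was not tested.

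The response elements recognised by these factors hold the letters GAAANNGAAA, which were searched on both strands of RefSeq promoters (GRCm38.p6) that run from 250 bases before to 50 bases after the gene start. They were found for 13 of the 26 list members with a promoter in the table (50%), against 3.64% of all measured genes. The list holds known interferon-stimulated genes, so this share describes the list and not these arrays. Of the 24 such members that rose, 12 held them (50%). Among all genes that rose, these list members included, 5.09% held them, against 2.53% of those that fell and 3.60% of those not called. Ifit2, with the largest rise of the list, had no match in its window. The promoters of Rsad2, Ifit1 and Bst2 are shown because these antiviral genes rose and their windows hold matches, which are in capitals. The windows are chr12:26456403-26456702 (minus strand) for Rsad2, chr19:34640639-34640938 (plus strand) for Ifit1 and chr8:71537423-71537722 (minus strand) for Bst2, each written 5′ to 3′ along its gene. Rsad2 holds 1 match, Ifit1 holds 2 separate matches and Bst2 holds 2 that overlap.
Rsad2: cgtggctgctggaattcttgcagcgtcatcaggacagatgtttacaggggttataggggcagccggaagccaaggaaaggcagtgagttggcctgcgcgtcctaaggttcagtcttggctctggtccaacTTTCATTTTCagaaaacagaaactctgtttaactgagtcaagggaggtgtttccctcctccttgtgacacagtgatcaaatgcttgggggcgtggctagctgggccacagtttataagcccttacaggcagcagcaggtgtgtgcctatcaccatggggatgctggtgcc
Ifit1: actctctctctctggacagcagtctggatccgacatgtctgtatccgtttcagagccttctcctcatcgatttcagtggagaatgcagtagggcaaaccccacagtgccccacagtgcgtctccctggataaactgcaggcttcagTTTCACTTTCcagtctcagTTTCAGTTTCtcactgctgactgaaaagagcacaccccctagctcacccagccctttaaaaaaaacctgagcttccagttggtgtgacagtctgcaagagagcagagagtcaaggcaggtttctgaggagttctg
Bst2: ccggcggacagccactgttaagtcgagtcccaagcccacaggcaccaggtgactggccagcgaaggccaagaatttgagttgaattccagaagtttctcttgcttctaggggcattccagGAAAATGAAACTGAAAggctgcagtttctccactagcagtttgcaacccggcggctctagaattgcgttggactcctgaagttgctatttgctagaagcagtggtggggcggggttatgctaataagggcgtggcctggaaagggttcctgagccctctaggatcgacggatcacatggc

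Among the antiviral effectors, Rsad2 encodes viperin, which blocks viral RNA synthesis. Its log2 values were 12.17 and 12.39 in marrow-derived and 9.99 and 9.17 in white adipocytes, a rise of 2.70 ± 0.30. Bst2, the tetherin that holds budding virus at the membrane, stood at 11.68 and 12.00 against 9.98 and 9.13 and rose by 2.28 ± 0.32. Ifit1 and Ifit2 encode proteins that bind foreign RNA. Ifit2 was at 10.70 and 10.50 against 7.64 and 7.44, an 8.35-fold rise (3.06 ± 0.17, adjusted p = 0.00352), and Ifit1 rose by 2.59 ± 0.19. In both genes the arrays of a group lay close together, and the groups were far apart relative to that spread. The 2′-5′ oligoadenylate synthetase family, which activates RNA decay, followed with Oasl2 (2.95 ± 0.40) and Oas2 (2.90 ± 0.28). Oas3 did not pass (1.66 ± 0.88, adjusted p = 0.233): it stood at 8.40 on the GFP and 6.00 on the LacZ array, overlapping the white values of 6.29 and 4.79.

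Regulators of the pathway rose with its effectors. Irf7, the factor that amplifies interferon production, stood at 9.74 and 9.82 against 7.30 and 7.51 (2.37 ± 0.17, adjusted p = 0.00352). Stat2 rose by 1.95 ± 0.15, from white values of 7.10 and 7.19 to 9.14 and 9.06. Usp18, which restrains the receptor, rose by 2.81 ± 0.31. The DNA-sensing genes Cgas (1.34 ± 0.31) and Sting1 (3.05 ± 0.49) rose as well. On their brightest probe sets the receptor subunits and their kinases did not pass: Ifnar1 differed by 0.33 ± 0.16, Ifnar2 by -0.05 ± 0.20 (1.21 on the mean of its probe sets, adjusted p = 0.0175), Jak1 by 0.43 ± 0.18 and Tyk2 by 0.50 ± 0.31. Other probe sets disagreed: of 3 for Ifnar2, 2 were higher (by 1.57 and 2.13, adjusted p = 0.0141 and 0.0109), as was 1 of 3 for Jak1 (by 1.12, adjusted p = 0.0124). Ifnb1, a type I interferon itself, had values of 2.59 to 2.74 on the marrow-derived and white arrays, near the lowest values of the arrays. Ifi27 was the 1 member that fell, at 11.99 and 11.96 against 12.83 and 12.94 (-0.91 ± 0.15, adjusted p = 0.0136). Mx1 (9.35 and 6.55 against 7.08 and 6.62) and Isg20 (9.32 and 9.71 against 8.96 and 9.56) overlapped and were not called. When white replicate 2 was left out, 18 members rose and the calls of Irf9 (adjusted p = 0.0587), Ifi27 (0.0757) and Cgas (0.114) were lost. Cgas was also not called without the GFP array (0.0877) or the LacZ array (0.0706).

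**Figure D3:**
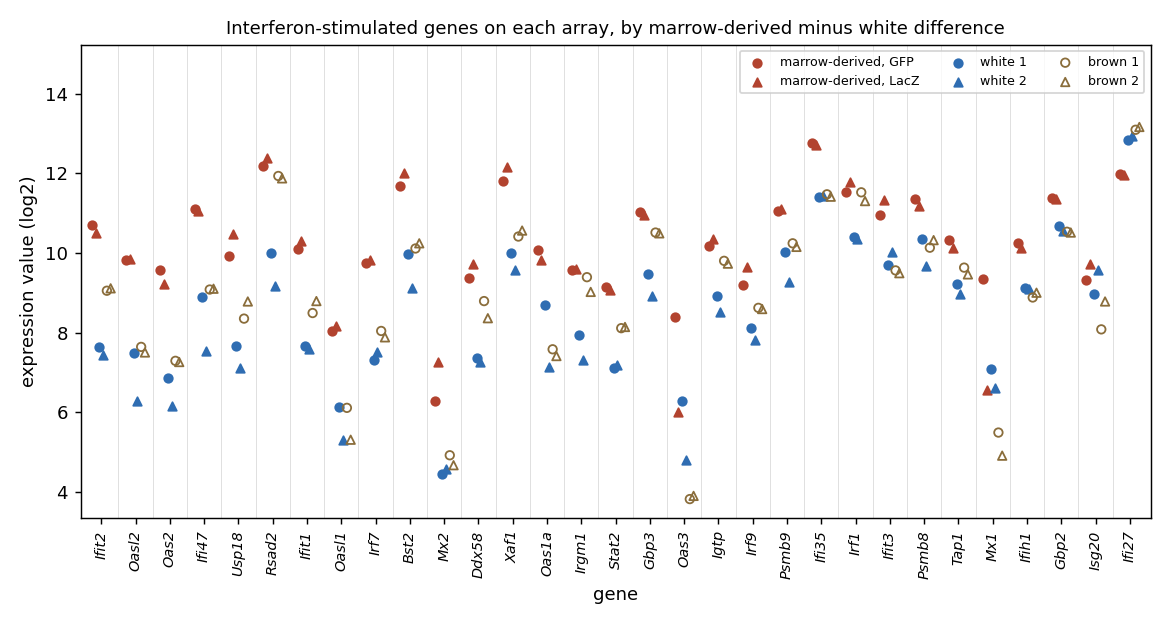
Each column is an interferon-stimulated gene and each symbol its log2 expression value on 1 of the 6 arrays; genes are ordered by the difference between marrow-derived and white means. Red symbols lie above blue ones in most columns, Oas3, Mx1 and Isg20 overlap, and Ifi27 is lower.

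The proteasome degrades tagged proteins. Psmb8, Psmb9 and Psmb10, the immunoproteasome's catalytic subunits that interferon induces and that favour peptides for antigen presentation, were the 3 members that rose of 38. Psmb9 stood at 11.05 and 11.09 against 10.03 and 9.27 (1.42 ± 0.28, adjusted p = 0.0201), Psmb8 differed by 1.25 ± 0.27 and Psmb10 by 0.71 ± 0.17. Psmb8 and Psmb9 also belong to the interferon list. Psmb5, a standard catalytic subunit, had 11.86 and 11.91 against 12.30 and 12.36 (-0.45 ± 0.19, adjusted p = 0.15), and 5 subunits fell, among them Psmb1 (-0.96 ± 0.18). The shares, 7.89% up and 13.2% down, were near the background. None of the 3 rises passed without white replicate 2 (adjusted p = 0.0827, 0.0537 and 0.16 for Psmb8, Psmb9 and Psmb10), and without the LacZ array all 3 were lost too (0.0586, 0.0608 and 0.0767). Without the GFP array Psmb8 (0.0717) and Psmb10 (0.0869) were not called, nor was Psmb10 without white replicate 1 (0.0624). Psmb1 was not called without the LacZ array (0.0574) or either white array (0.0597 and 0.0915), and at most 2 of the 38 subunits fell in any fit that left out 1 of these 4 arrays. Class II antigen presentation genes gave no call by limma in 12 (0 higher and 0 lower at an unadjusted p under 0.05), with list means of 10.12 on the GFP and 7.64 on the LacZ array that enclose those of white adipocytes (9.54 and 8.28).

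Branched-chain amino acid breakdown was lower at nearly every step. Leucine, isoleucine and valine first lose their amino group to Bcat1 in the cytosol or Bcat2 in mitochondria. The branched-chain ketoacid dehydrogenase of Bckdha, Bckdhb, Dbt and Dld then commits them to breakdown, and the separate branches end in acetyl- and succinyl-CoA. Of 26 measured members 23 fell and the other 3 were not called, with a median difference of -1.71, and in 19 the nearest arrays lay at least 2-fold apart. List means were 9.06 and 8.79 in marrow-derived against 10.77 and 10.92 in white adipocytes. Over the same arrays the mean of 16 adipocyte identity genes was 11.39 and 10.41 against 12.34 and 12.38, with 7 members lower, so the samples also differed in general adipocyte transcripts. The part of this in the enzyme differences was not tested. The count of lower identity genes was 12 without the GFP array and 3 without either white array.

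Bcat1 stood at 2.67 and 3.69, near the lowest values of the arrays, against 10.82 and 9.65 in white adipocytes. The mitochondrial Bcat2 had 8.64 and 8.58 against 10.96 and 11.34 (-2.54 ± 0.26, adjusted p = 0.00521). Both aminotransferases were thus clearly separated between the groups. In the dehydrogenase, Bckdha was at 6.72 and 6.79 against 9.28 and 9.67 (-2.72 ± 0.19, adjusted p = 0.00352), a 6.61-fold fall. Bckdhb fell by 2.65 and Dbt by 2.38 on the log2 scale. The kinase Bckdk, which switches the complex off, differed less (-0.83 ± 0.21, adjusted p = 0.042), and the phosphatase Ppm1k, which switches it on, did not pass (-0.53 ± 0.20, adjusted p = 0.11). Downstream, the leucine branch enzymes Ivd (-2.23 ± 0.26) and Mccc2 (-2.57 ± 0.19) fell. Mccc2 read 7.63 on both marrow-derived arrays, against 10.06 and 10.35. Pcca, of the propionyl-CoA carboxylase shared by isoleucine and valine, was at 9.54 and 8.24 against 10.97 and 11.14. Abat, which breaks down GABA and an intermediate of valine, fell by 2.91 on the log2 scale. The members not called were Ppm1k, Hsd17b10 (-0.66 ± 0.18, adjusted p = 0.051) and the mitochondrial carrier Slc25a44 (-0.77 ± 0.40, adjusted p = 0.228). Other probe sets disagreed for the latter genes. Hsd17b10 was lower on its other probe set (-0.67, adjusted p = 0.0444). Slc25a44 was lower on another probe set (-1.92, adjusted p = 0.00506) and not on a further one (-0.12, adjusted p = 0.691). The count was 13 without white replicate 2, and the call of Bckdk was lost whichever of the 4 arrays was left out (adjusted p = 0.0635, 0.126, 0.0651 and 0.183 for the GFP, LacZ and white arrays). Pcca was not called without either white array (0.0645 and 0.096), and without white replicate 1 the count was 17.

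**Figure D4:**
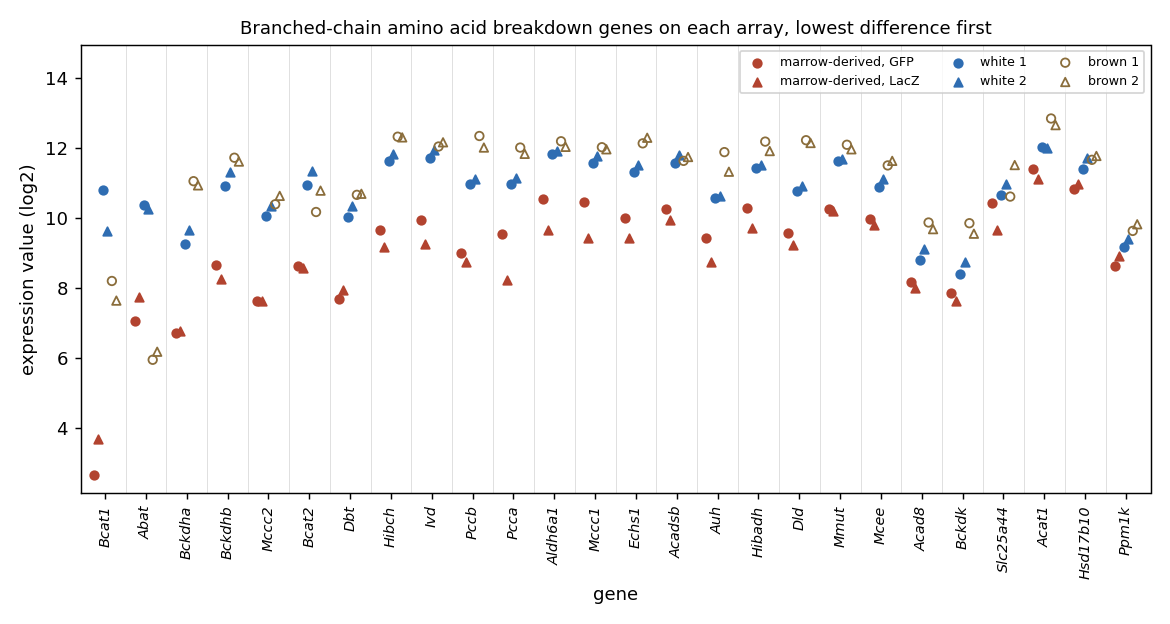
Each column is a gene of branched-chain amino acid breakdown and each symbol its log2 expression value on 1 of the 6 arrays, from the most negative difference at the left. Bcat1 spans the widest range, and in every column shown both marrow-derived arrays lie below both white arrays.

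Other biosynthetic enzymes fell too. The serine synthesis pathway turns a glycolytic intermediate into serine through Phgdh, Psat1 and Psph. Phgdh stood at 9.85 and 8.89 against 12.55 and 12.88 (-3.34 ± 0.35, adjusted p = 0.0052), and Psat1 at 10.70 and 9.38 against 12.56 and 12.74 (-2.61 ± 0.46, adjusted p = 0.0152). The alanine aminotransferase Gpt fell by 3.24. In all 10 of 24 amino acid synthesis genes fell and 1 rose, Aldh18a1 of proline synthesis (1.20 ± 0.33, adjusted p = 0.0492). Without white replicate 2 only 2 fell, and the calls of Psat1 (adjusted p = 0.0749), Gpt (0.0528) and Aldh18a1 (0.199) were lost. Without white replicate 1 there were 6 lower, and Aldh18a1 was also not called without white replicate 1 (0.0619), the GFP array (0.137) or the LacZ array (0.0848).

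In cholesterol synthesis 11 of 21 members fell (52.4%) and 1 rose, with a median difference of -1.42. Lss, which closes the sterol rings, was at 6.38 and 5.88 against 8.21 and 8.92 (-2.44 ± 0.43). Sc5d, a late desaturase, fell by 2.53 and Fdps, which makes farnesyl diphosphate, by 1.96. In each of these enzymes the groups were at least 2-fold apart between nearest arrays. Stard4, a carrier that moves cholesterol between membranes, rose, at 10.47 and 10.84 against 9.06 and 8.56 (1.85 ± 0.24, adjusted p = 0.00788). The count of falls rests on the white arrays and the LacZ array: 1 member fell without white replicate 2, 7 without white replicate 1 and 5 without the LacZ array. Fdps, Lss and Sc5d all lost their calls without white replicate 2 (adjusted p = 0.132, 0.0717 and 0.0528). Lss was also lost without the LacZ array (0.051), and Fdps without the GFP array (0.085), the LacZ array (0.0842) or white replicate 1 (0.0906).

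Antioxidant genes fell in 14 of 35 members (40.0%) and rose in 2. Sod3, the extracellular superoxide dismutase, had nearly equal replicates: 8.11 and 8.12 in marrow-derived against 11.87 and 11.97 in white adipocytes (-3.81 ± 0.16, adjusted p = 0.00288). Gstz1, which also degrades tyrosine, fell by 2.83. Gsta3, a glutathione transferase, had 9.99 and 8.27 against 11.68 and 12.55, and its call (adjusted p = 0.0492) was lost without white replicate 2 (0.194), without white replicate 1 (0.0908) or without the LacZ array (0.141). The number of falls was 5 without white replicate 2, 7 without white replicate 1 and 8 without the LacZ array.

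Genes of lipolysis and its receptors were mostly lower. Lipolysis frees fatty acids from stored triglyceride when hormones raise cyclic AMP, and lactate, ketone and prostaglandin receptors restrain it. Of 20 measured members 12 fell and 1 rose, with a median of -1.58. The thyrotropin receptor Tshr stood at 8.25 and 5.73 against 11.01 and 11.66 (-4.34 ± 0.88, adjusted p = 0.0224). Mc2r, the receptor of corticotropin, which is on no list, was at 6.75 and 5.99 against 10.60 and 10.82 (-4.34 ± 0.33, adjusted p = 0.00353). Both receptors were lower on each marrow-derived array, with the LacZ array lowest. Adcy5, an adenylyl cyclase that makes cyclic AMP, fell by 3.52. Among the restraining genes Hcar2, the ketone and niacin receptor, fell by 3.25, and G0s2, the inhibitor of the main triglyceride lipase, by 2.82, at 9.77 and 8.88 against 11.95 and 12.34. Both promoting and restraining genes were among those that fell. Npr1, the natriuretic peptide receptor, was the 1 that rose, at 7.63 and 7.94 against 4.92 and 3.79 (3.43 ± 0.50, adjusted p = 0.00964). The count was 4 without white replicate 2 and 7 without white replicate 1. Without white replicate 2 Tshr (adjusted p = 0.102), Adcy5 (0.0692) and Hcar2 (0.0518) lost their calls, and without white replicate 1 Tshr did (0.0594).

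Insulin signalling genes fell at single steps. The receptor Insr and its substrate Irs1 were not called, while 5 of 18 members (27.8%) fell: Grb14, Akt2, Tbc1d4, the insulin-responsive glucose transporter Slc2a4 and the adaptor Irs2. Grb14, an adaptor that inhibits the receptor, had 5.29 and 5.98 against 10.89 and 10.76, a 36.6-fold fall (-5.19 ± 0.27, adjusted p = 0.00329). Akt2 is the kinase isoform of insulin-driven glucose uptake, and Tbc1d4 is the substrate that releases the transporter. Akt2 was at 7.79 and 7.06 against 9.66 and 10.09 (-2.45 ± 0.30), and Tbc1d4 at 6.54 and 6.52 against 8.77 and 8.98 (-2.34 ± 0.17, adjusted p = 0.00353). The tight replicates of Tbc1d4 left more than 2 log2 units between the nearest arrays.

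In glucose handling, the 2 hexokinases named here differed in direction, while both glycogen synthases fell. Hexokinase traps glucose in the cell: Hk2, the insulin-responsive form, fell by 3.29, at 9.14 and 7.75 against 11.52 and 11.96, while Hk1, the widespread form, rose by 1.74 ± 0.26, at 9.51 and 9.71 against 8.07 and 7.66. Pygm, the muscle form of glycogen phosphorylase, rose by 2.97 ± 0.37, whereas the glycogen synthases Gys1 and Gys2 fell by 2.10 and 3.46. In AMP kinase, the sensor of cell energy, the gamma subunit Prkag3 stood at 4.36 and 4.48 against 9.87 and 10.40 and the alpha subunit Prkaa2 at 5.30 and 4.85 against 8.28 and 8.79 (-3.46 ± 0.26, adjusted p = 0.00353). Both subunits were near 5 on the marrow-derived arrays and clearly expressed in white adipocytes. Across the list 15 of 31 members fell (48.4%) and 4 rose. The falls numbered 4 without white replicate 2, 9 without white replicate 1 and 9 without the LacZ array. Hk1 (adjusted p = 0.0537), Hk2 (0.0539), Gys1 (0.114) and Gys2 (0.0761) lost their calls without white replicate 2, and Hk1 was not called on the mean of its probe sets (0.241). Gys1 was also lost without the LacZ array (0.0642).

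Of 77 genes for mitochondrial ribosomal proteins, which translate the genes of the mitochondrial genome, 36 fell (46.8%), with a median of -0.61. Mrpl50 was at 8.46 and 8.05 against 9.98 and 9.88 (-1.68 ± 0.20, adjusted p = 0.00684), and Mrps18b fell by 1.66. Of 42 genes for cytosolic ribosomal proteins 2 rose, Rpl12 (1.66 ± 0.40) and Rps27 (1.46 ± 0.31), with a median of 0.12. Rpl4, at 13.33 and 13.34 against 13.32 and 13.30, had nearly the same value on all 4 arrays. Without white replicate 2 the falls of the mitochondrial list numbered 6, without white replicate 1 they numbered 15, without the LacZ array 20 and without the GFP array 22. The cytosolic median became -0.05 under centring over all probe sets, while the mitochondrial one was -0.78. Rpl12 (adjusted p = 0.103) and Rps27 (0.115) lost their calls without white replicate 2. Rpl12 was also lost without the GFP array (0.0595) or the LacZ array (0.111), and Rps27 without white replicate 1 (0.0731).

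Notch pathway genes rose from ligand to target. Notch receptors bind Delta and Jagged ligands on neighbouring cells, are cut, and drive Hes and Hey repressors; in vessels the pathway marks arterial cells. Of 31 measured members 16 rose (51.6%) and 3 fell, with a median of 0.65. The ligand Dll4 stood at 9.50 and 10.61 against 5.90 and 4.90 (4.65 ± 0.57, adjusted p = 0.00701). The receptor Notch4 was at 11.96 and 12.36 against 7.72 and 7.34, a 24.8-fold rise (4.63 ± 0.30, adjusted p = 0.00352). Both are known from endothelium, and Notch4 was at 10.43 and 9.78 in brown adipocytes. Notch3, a receptor of pericytes and smooth muscle, rose by 3.26 ± 0.37 and Notch1 by 1.79 ± 0.21. The ligands Dll1 (3.32 ± 0.37) and Jag2 (3.21 ± 0.38) rose with them, while Jag1, Dll3 and the receptor Notch2 were not called.

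All of Hes1, Hey1, Hey2, Heyl and Nrarp, targets that report Notch activity, rose. Hes1 was at 8.76 and 9.68 against 6.07 and 5.21 (3.58 ± 0.44), Hey1 at 11.94 and 12.50 against 9.48 and 8.72 (3.12 ± 0.33) and Hey2 rose by 2.47 ± 0.20 (adjusted p = 0.00358). The marrow-derived arrays exceeded the white arrays in each by over 2-fold. Smooth muscle and pericyte markers moved in the same direction, with 9 of 15 higher and means of 9.78 and 10.48 against 8.39 and 8.02. The vessel marker means, 11.47 and 11.96 against 8.39 and 7.45, did so too, and their part in the Notch result was not tested.

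**Figure D5:**
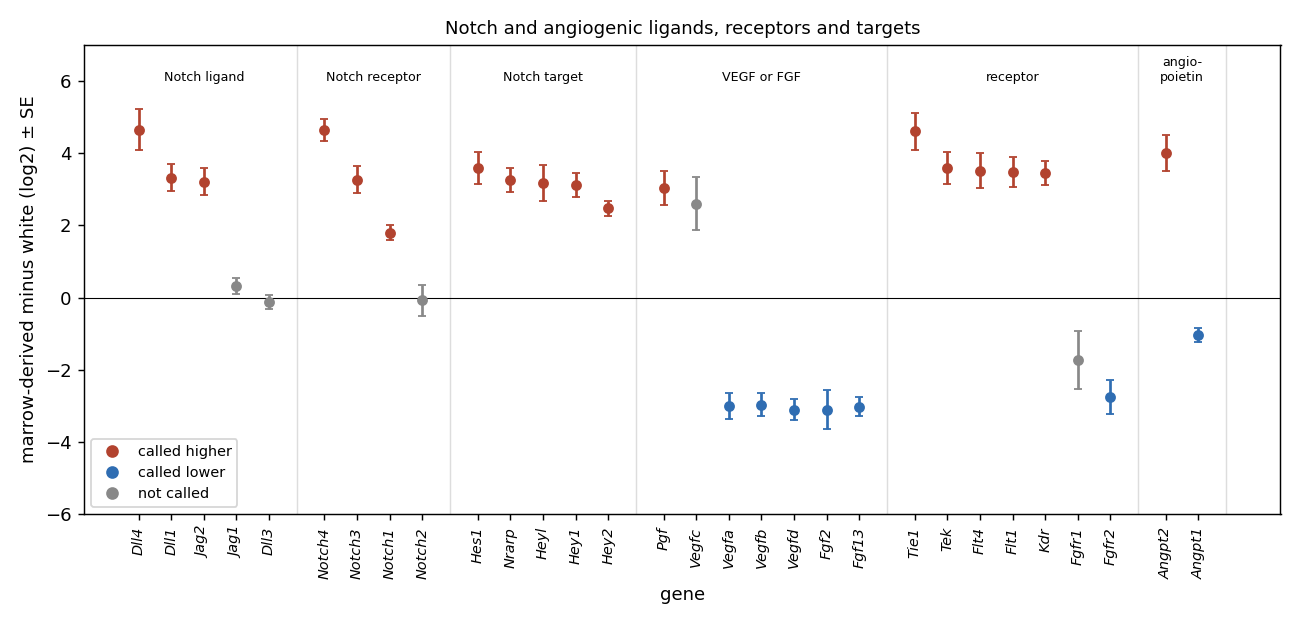
Points give the log2 difference between marrow-derived and white adipocytes with its limma standard error (n = 2 arrays per group). Notch genes and angiogenic ligands and receptors are shown. The error also holds the spread of the brown pair, and colour marks the call. Notch genes and vessel receptors lie between about 2 and 5 where called, while Vegfa, Vegfb, Vegfd, Fgf2 and Fgf13 lie near -3, Fgfr2 is lower, and Jag1, Dll3, Notch2, Vegfc and Fgfr1 were not called.

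Angiogenic ligands moved in both directions, and the vascular receptors named here rose. Vascular endothelial growth factors are made by adipocytes and read by receptors on vessels. Vegfa was at 7.43 and 6.42 against 9.77 and 10.07, a 7.96-fold fall (-2.99 ± 0.36, adjusted p = 0.00662). Vegfb fell by 2.97 and Vegfd by 3.10, the latter at 7.39 and 7.28 against 10.17 and 10.68. As in every called gene, the groups did not overlap in these 3 ligands. Kdr, the main receptor of Vegfa, was at 11.93 and 12.58 against 9.16 and 8.44 (3.45 ± 0.34), Flt1 rose by 3.48 ± 0.42 and Flt4, the receptor of Vegfd and Vegfc, by 3.51 ± 0.49. Pgf, placenta growth factor, rose by 3.03 ± 0.46, though not without white replicate 2 (adjusted p = 0.0558), and Vegfc did not pass (2.60 ± 0.73, adjusted p = 0.054). Pdgfb, a platelet-derived growth factor that recruits pericytes, was at 9.73 and 10.47 against 7.89 and 6.41 (2.95 ± 0.53). Its call was lost in a fit of the marrow-derived and white arrays alone (adjusted p = 0.0506). The call was lost without the LacZ array too, where the difference was 2.58.

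Angiopoietins steady or loosen vessels through the receptor Tek. Angpt2, made by endothelium, was at 9.95 and 10.92 against 6.92 and 5.93 (4.01 ± 0.50), while Angpt1 fell by 1.04, at 7.11 and 7.09 against 7.96 and 8.32. Fgf2 was near the lowest values in marrow-derived adipocytes (3.07 and 2.84 against 5.33 and 6.79), and Fgf13 fell by 3.02. Of the whole family 14 of 42 rose (33.3%) and 10 fell (23.8%), both above the shares among all genes. Tie1, Tek, Kdr and Flt1 also belong to the vessel marker list, whose 18 members all rose. Leaving out white replicate 2, 6 members fell and Angpt1 lost its call (adjusted p = 0.076).

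Among ligands and receptors of axon guidance, many of which also act in vessels, 23 of 65 rose (35.4%) and 6 fell. Epha4 and Ephb1 are receptor kinases for ephrins on neighbouring cells, and Robo4 is a vascular receptor. Epha4 was at 9.14 and 10.25 against 5.98 and 4.53 (4.44 ± 0.58), Robo4 at 12.06 and 12.28 against 8.60 and 7.81 (3.96 ± 0.31). Ephrin B2 (Efnb2), a mark of arteries, rose by 3.73 ± 0.46 and its receptor Ephb4, a mark of veins, by 3.25 ± 0.42, at 8.98 and 10.07 against 6.37 and 6.18. Markers of both vessel sides were therefore higher. Ephrin A5 (Efna5) fell, at 6.80 and 6.46 against 9.66 and 10.02 (-3.21 ± 0.25, adjusted p = 0.00358), and the secreted semaphorin Sema3c fell by 3.04. Ephb1 rose by 4.01 ± 0.69 but was not called without white replicate 2 (adjusted p = 0.0666), where 3 members fell; 3 fell without the LacZ array too.

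In the TGF-beta and bone morphogenetic protein pathways 13 of 55 genes rose (23.6%) and 7 fell (12.7%). Bmp6, a bone morphogenetic protein made by endothelium among others, was at 10.82 and 11.38 against 7.34 and 6.54 (4.16 ± 0.36), and brown adipocytes were as high (11.07 and 10.60). Id1, a direct target of bone morphogenetic proteins, rose by 3.27 ± 0.25, at 11.89 and 12.19 against 9.05 and 8.48, and Id4 rose by 3.67 ± 0.38. Eng, a co-receptor and endothelial marker, rose by 4.09 ± 0.37. Bmper, a secreted modulator, fell, at 7.26 and 7.42 against 10.21 and 10.76 (-3.15 ± 0.23, adjusted p = 0.00353). Acvr1c, the adipocyte-rich receptor ALK7, was at 9.89 and 7.34 against 11.49 and 11.86, and its call (adjusted p = 0.0446) was lost without either white array (0.111 without replicate 1 and 0.168 without replicate 2). The falls numbered 3 without white replicate 2, and the rises 7 without white replicate 2 and 8 without the LacZ array.

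Wnt pathway calls were near the background, with 6 of 61 higher (9.84%) and 10 lower (16.4%). Several lay far apart. Sfrp5, a secreted Wnt antagonist of white fat, read 5.22 and 6.60 against 11.31 on both white arrays. Wnt5a, a ligand of the branch that does not act through beta-catenin, was at 5.62 and 4.12 against 9.13 and 9.22 (-4.30 ± 0.50, adjusted p = 0.00634). Axin2, a target of beta-catenin signalling, was at 7.30 and 6.10 against 9.16 and 10.49 (-3.13 ± 0.57), and Fzd6, a receptor, rose by 4.01 ± 0.36. A ligand, an antagonist and a target thus fell in 1 pathway while a receptor rose. Axin2 was not called without white replicate 2 (adjusted p = 0.0617), where 2 members rose and 5 fell. Without the LacZ array 6 fell.

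Growth factor and hormone axes showed single genes far apart. In the insulin-like growth factor system Stc2 and Igfals fell and Igf1r and Igfbp3 rose, in a list of 18 with 4 higher and 5 lower. Stc2, an inhibitor of the protease that frees the growth factor, was at 4.88 and 4.23 against 8.49 and 9.49 (-4.44 ± 0.41). Igf1r, the receptor, was at 9.49 and 10.24 against 7.33 and 6.82 (2.79 ± 0.37), while the ligand Igf1 did not pass (11.58 and 10.23 against 12.40 and 12.46, adjusted p = 0.0819). Leaving out white replicate 1 or the LacZ array gave 3 lower; leaving out white replicate 2 gave 1 lower and 2 higher, and Igfals was then not called (adjusted p = 0.0502). In the renin-angiotensin system the receptor Agtr1a rose, at 10.90 and 10.91 against 8.13 and 6.79 (3.44 ± 0.44), and angiotensinogen (Agt) fell, at 6.82 and 6.57 against 9.34 and 11.15. The call of Agt was lost without white replicate 2 (adjusted p = 0.0656), without the GFP array (0.0511) or without the LacZ array (0.0676).

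Retinoid genes moved in both directions. Aldh1a1, which makes retinoic acid, fell by 2.94, at 8.72 and 8.38 against 11.26 and 11.71, and Rbp4, the carrier of retinol in blood, fell by 2.72. Cyp26b1, which degrades retinoic acid, rose by 4.99 ± 0.67, at 9.52 and 10.87 against 5.72 and 4.69. Rbp7, a retinol-binding protein of adipose endothelium, rose by 4.60 ± 0.37, at 13.09 and 12.84 against 8.86 and 7.88. Of 24 members 4 rose and 6 fell, and Rbp4 was not called without either white array (adjusted p = 0.0806 and 0.127). The counts were 7 higher without the GFP array, 3 lower without white replicate 1, and 2 higher and 3 lower without white replicate 2.

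Serotonin genes showed a large gap in Tph2, the neuronal form of the enzyme that starts serotonin synthesis. It read 3.26 and 3.48, near the lowest values, against 11.40 and 9.02 in white adipocytes. Maob, which breaks down amines, was at 7.63 and 5.56 against 10.07 and 10.61 (-3.75 ± 0.67, adjusted p = 0.0161, lost without white replicate 2 at 0.0793). The receptor Htr7 rose by 2.12 ± 0.33, though its values of 5.90 and 5.27 against 3.57 and 3.35 are low, and without white replicate 2 its adjusted p was 0.061. With 1 of 19 higher and 3 lower, the list as a whole was near the background.

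Imprinted genes, expressed from the copy of a single parent, moved in both directions. Of 36 measured members 5 rose (13.9%) and 9 fell (25%), against 12.2% and 13.6% of all genes. On their brightest probe sets the maternally expressed noncoding RNAs of the Dlk1 cluster rose together. Rian was at 8.62 and 9.56 against 5.46 and 4.45 (4.14 ± 0.46, adjusted p = 0.00592). Meg3 was at 8.54 and 8.67 against 5.58 and 5.01 (3.31 ± 0.51) and Mirg at 5.86 and 6.30 against 3.21 and 2.97 (2.98 ± 0.21). Other probe sets disagreed. Those of Meg3 ranged from -0.21 (adjusted p = 0.477) to 3.56 (0.0106). Those of Rian differed by 2.85, 2.11 and 0.15 (0.00958, 0.00354 and 0.764), and that of Mirg by -0.13 (0.716). Dlk1 itself, the paternally expressed gene of that cluster and an inhibitor of adipogenesis, did not pass (5.10 and 5.89 against 3.70 and 3.69, adjusted p = 0.178). Its marrow-derived and white arrays did not overlap. The error of this test also holds the spread of the brown arrays, which lay far apart for Dlk1 (6.53 and 3.99). Cdkn1c, a cell cycle inhibitor, rose by 2.06 ± 0.27. Among the 9 that fell, Nnat was at 9.93 and 8.78 against 13.15 and 13.14, Peg10 at 5.06 and 6.70 against 9.13 and 9.01 and Mest at 9.47 and 10.59 against 11.87 and 11.45. Nnat, Peg10 and Mest are paternally expressed, and Rian, Meg3, Mirg and Cdkn1c maternally. The other genes that fell were not sorted by parent, so no split by parent is drawn. Igf2, paternally expressed, rose by 2.78 ± 0.54. Without white replicate 2 the counts were 3 higher and 1 lower of 36, and the calls of Meg3 (adjusted p = 0.0574), Igf2 (0.0648), Peg10 (0.0745) and Mest (0.103) were lost. Without white replicate 1 there were 4 lower, and without that array Peg10 (0.0617) and Mest (0.145) were not called. Mest was also lost without the GFP array (0.0679) and Igf2 without the LacZ array (0.064).

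Chromatin regulators rose in small steps. Of 47 polycomb, trithorax and DNA methylation genes 17 rose (36.2%) and 1 fell, with a median of 0.61. Tet1, which oxidises methylated DNA, was low in both groups but separated, at 5.64 and 6.50 against 3.13 and 3.21 (2.90 ± 0.30). Rbbp4, a histone-binding subunit of several repressor complexes, was at 9.31 and 9.11 against 7.30 and 7.58 (1.78 ± 0.19), and the methyltransferase Dnmt3b at 8.02 and 8.04 against 6.37 and 6.33 (1.68 ± 0.23). The other 2 probe sets of Rbbp4 did not pass (-0.07 and 0.49, adjusted p = 0.832 and 0.489). Nor did the other probe set of Dnmt3b (0.63, adjusted p = 0.0879) or those of Tet1 (0.99, 0.22 and 0.46, adjusted p = 0.0569, 0.41 and 0.484). The replicates of Rbbp4 and Dnmt3b lay closer together than the marrow-derived values of Tet1. Kmt2a, a trithorax methyltransferase, rose by 1.55 ± 0.21. Cbx8, a polycomb reader, was the 1 that fell (-1.30 ± 0.20, adjusted p = 0.0112), though not on its other probe set (0.01, adjusted p = 0.989). Kdm6a and Kdm5c, 2 of the 17, are X-linked genes that escape inactivation. Kdm6a stood at 9.47 and 9.72 against 8.07 and 8.05, and Kdm5c at 10.74 and 10.82 against 9.18 and 9.65. Their other probe sets disagreed. For Kdm6a 2.29 passed (adjusted p = 0.0038), and 1.00 and 0.30 did not (0.082 and 0.34). For Kdm5c 1.39, 1.44 and 0.99 passed (0.0212, 0.0126 and 0.0119), and -0.13, 0.26, 0.35, 0.41 and 0.71 did not. The rises numbered 9 without white replicate 2 and 11 without white replicate 1, and Cbx8 was not called without white replicate 2 (adjusted p = 0.0514).

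Of 57 SOX, GATA, KLF, ETS and FOXO genes 21 rose (36.8%) and 4 fell. Sox17, Sox18 and Erg, factors of endothelial identity, rose by 4.17 ± 0.37, 4.33 ± 0.41 and 4.02 ± 0.31. Erg was at 9.64 and 10.17 against 6.18 and 5.59. Klf14, an imprinted regulator of fat gene networks, was at 3.36 and 4.62 against 9.02 and 8.64 (-4.84 ± 0.43, adjusted p = 0.00395), and Klf15, a factor of amino acid and glucose metabolism, fell by 3.01. Klf14 was low in brown adipocytes as well (4.24 and 4.35). The rises numbered 12 without white replicate 2 and 13 without the LacZ array, 12 in a fit of the marrow-derived and white arrays alone, and Klf15 was not called without white replicate 2 (adjusted p = 0.0691).

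Patterning factors other than Hox rose in 14 of 65 members (21.5%) and fell in 3. Foxf1, a factor of visceral mesenchyme and endothelium, was at 7.29 and 9.75 against 4.20 and 3.31 (4.76 ± 0.82, adjusted p = 0.0145). Tbx2 rose by 4.55 ± 0.61, and Msx1 was at 8.51 and 9.04 against 5.10 and 4.20 (4.13 ± 0.35). As in every called gene, the groups did not overlap in these 3 factors. Foxf1 was not called without white replicate 2 (adjusted p = 0.0741).

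Nuclear receptors gave 5 rises and 6 falls in 38, near the background. Nr5a2, a receptor of liver and ovary, was at 9.91 and 10.35 against 5.57 and 4.54, and the stress-induced Nr4a3 rose by 3.18 ± 0.45. Rxrg, a partner of many receptors, was at 4.44 and 3.74 against 7.32 and 7.81 (-3.48 ± 0.30), and Esrrg, which drives oxidative genes, at 3.33 and 3.55 against 7.43 and 6.59 (-3.58 ± 0.30). Both were near the lowest values on the marrow-derived arrays. Pparg, the master regulator of fat cells and itself a nuclear receptor, was at 11.56 and 11.81 against 11.63 and 12.01, so its arrays overlapped. Leptin (Lep) was at 10.07 and 10.55 against 12.99 and 12.97, and adiponectin (Adipoq) at 12.70 and 11.86 against 13.22 and 13.24 (adjusted p = 0.072). Among 20 clock genes 5 fell and 1 rose. Nr1d1, the repressor of the clock loop, was at 9.11 and 8.75 against 10.59 and 11.12 (-1.93 ± 0.26), Hlf, an output factor, fell by 1.90, and Cry1 rose by 0.87 ± 0.19, a call lost without white replicate 2 (adjusted p = 0.065), without white replicate 1 (0.102) or without the LacZ array (0.0805). Without either white array 2 clock genes fell, and 2 nuclear receptors fell without white replicate 2.

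Matrix genes exchanged members. Of 52 basement membrane and elastic matrix genes 15 rose (28.8%) and 8 fell (15.4%); over the list the nearest arrays lay at least 2-fold apart upward in 15 members and downward in 6, which are not all the called ones. Sparcl1, a matrix protein of vessels, was at 12.48 and 12.76 against 9.35 and 7.78 (4.05 ± 0.53), and the laminin chain Lama5 at 10.20 and 10.94 against 7.41 and 7.02 (3.36 ± 0.38). The collagen crosslinker Lox fell, with near-identical replicates of 7.82 and 7.84 against 11.05 and 11.06 (-3.23 ± 0.27, adjusted p = 0.00377), and Ltbp2, a fibrillin-binding protein, fell by 3.90. Collagens were near the background, with 5 of 35 higher and 3 lower. Among 37 proteases and inhibitors 10 rose (27.0%) and 4 fell: Plat, the tissue plasminogen activator, rose by 3.04 ± 0.43 and Mmp19 fell, at 8.13 and 7.16 against 11.57 and 11.04 (-3.66 ± 0.46). Of 24 integrins 6 rose, led by Itga8, Itga1 and Itga5. Itga1, a collagen receptor, was at 12.26 and 12.70 against 10.36 and 10.11 (2.24 ± 0.22). On the mean of its probe sets Itga5 was not called (0.88, adjusted p = 0.187). Integrin rises numbered 1 and those of the basement membrane list 8 without white replicate 2, where Itga8 (adjusted p = 0.0888) and Itga5 (0.0966) were not called. Itga8 was also lost without white replicate 1 (0.0655), where 3 integrins rose, and Itga5 without the LacZ array (0.0614). Without white replicate 2 the falls numbered 5 in the basement membrane list and 2 among the proteases, and the collagen counts were 3 higher and 1 lower.

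Secreted immune proteins and their receptors moved little apart from complement. Of 23 complement genes 8 fell (34.8%) and 1 rose. Cfb, a factor of the alternative pathway, was at 9.78 and 8.69 against 11.82 and 12.01 (-2.68 ± 0.39), C6, part of the membrane pore, at 7.78 and 6.29 against 9.87 and 10.88 (-3.34 ± 0.58), and Cfi, which inactivates C3b, at 2.90 and 2.46 against 5.23 and 5.54. Only Cfi of these kept its call without white replicate 2, where C6 had an adjusted p of 0.0683 and Cfb of 0.0521 and 5 members fell. Of 48 chemokines and receptors 4 rose (8.33%). Cxcl9, a chemokine induced by interferon gamma, was at 12.01 and 11.80 against 9.88 and 9.83 (2.05 ± 0.17, adjusted p = 0.00373). Without the GFP array 7 chemokine genes fell, without the LacZ array 8 rose and without white replicate 1 there were 7. The macrophage marker means were 10.61 on the GFP and 7.79 on the LacZ array, and their part in these counts was not tested. The lysosome list had 7 of 32 lower, 1 without the LacZ array, 3 without white replicate 1 and 4 without white replicate 2.

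Potassium channels gave 5 rises and 8 falls in 62, near the background. Kcna5, a voltage-gated channel of smooth muscle, was at 10.81 and 11.13 against 6.70 and 5.51 (4.86 ± 0.46). Abcc9 and Kcnj8, which form the vascular ATP-sensitive channel, both rose, Abcc9 at 11.36 and 11.42 against 8.45 and 6.91. Kcnh2, a channel of repolarisation, fell, at 4.71 and 4.60 against 8.18 and 8.47 (-3.67 ± 0.28, adjusted p = 0.00353). Abcc9 and Kcnj8 are also pericyte markers.

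Of further cell types, fibroblast and preadipocyte markers had 5 of 17 higher (29.4%), namely Postn (3.59 ± 0.47), Thy1 (3.25 ± 0.34), Pdgfrb (3.15 ± 0.53), Cd34 and Cd248. Thy1 was at 8.34 and 9.13 against 5.80 and 5.16. Erythroid markers had 3 of 8 higher (37.5%), Epor, Alas2 and Car2, and 1 lower, Car1; without white replicate 2 only 1 was higher, and Alas2 was lost there (adjusted p = 0.0781) and without the LacZ array (0.0508). Platelet markers had 4 of 13 higher, and 2 of these, Vwf and Selp, are also made by endothelium. Without either white array 2 rose, and Selp was not called without the LacZ array (adjusted p = 0.0752) or either white array (0.0818 and 0.0841). Mesothelial markers gave no call by limma in 14 (0 higher and 1 lower at an unadjusted p under 0.05, means of 7.27 and 5.62 against 6.65 and 6.55), and lymphatic endothelium gave 1 in 6, Flt4. Of 22 lymphocyte markers 1 rose (7 without the LacZ array) and 1 fell, which was Ighm, at 9.65 and 9.47 against 12.62 and 12.99. Of 17 epididymis and testis markers 2 fell (11.8%), near the 13.6% of all genes. Their means were low, at 3.49 and 3.67 against 4.83 and 4.32. Amhr2, the receptor of anti-Mullerian hormone and the only ovary or uterus marker called, was at 4.62 and 6.02 against 8.79 and 9.94, a call lost without white replicate 2 (adjusted p = 0.0559).

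Among the genes with the largest differences, many had arrays that lay within a narrow band in each group. Asxl3, a polycomb-linked gene, read 8.89 and 8.75 against 4.05 and 3.86 (4.87 ± 0.17, adjusted p = 0.00288). The mechanosensitive channel Piezo2 was at 10.36 and 10.72 against 5.92 and 5.04, with brown values of 5.34 and 5.31, so both marrow-derived arrays lay above the other 4. Clca2 was likewise at 9.18 and 9.83 against 5.13 and 3.29, with 3.92 and 4.05 in brown. By contrast Ccm2l, an endothelial gene, was at 11.46 and 11.86 against 7.02 and 5.25 and also high in brown adipocytes (10.58 and 9.83). Pcdh17, Klhl4, Als2cl, Fat4, Cxxc4 and Ifi213 rose by 4.86 to 5.13.

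In the other direction the oxytocin receptor Oxtr was at 7.27 and 6.06 against 11.82 and 11.81 (-5.15 ± 0.51), and low in brown adipocytes too (6.32 and 7.35). Ccn5, a secreted matricellular protein, was at 3.40 and 3.10 against 9.09 and 8.35, with 3.61 and 3.21 in brown. In both genes the white arrays lay above the other 4. Btc, a ligand of the epidermal growth factor receptor, read 3.91 and 3.61 against 8.87 and 8.90 (-5.13 ± 0.32, adjusted p = 0.00352). The secreted Lrg1 was at 6.68 and 6.44 against 11.26 and 12.24. Crtac1, Prr32, Mal2, Syt12 and Snhg11 fell by 5.59, 5.54, 5.32, 5.23 and 5.02.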

How the data were processed

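The authors deposited 1 log2 value per probe set and array, made with RMA and Partek per the submitters' processing notes; versions are not given in the sources used here. RNA was amplified before labelling, per the labels' protocols. Of 43057 probe sets 33565 had 1 gene symbol, 857 several and 8635 none; 33376 matched RefSeq (GRCm38.p6). Each of 17720 genes was read from its brightest probe set, by the mean of all 6 arrays. Group means were fitted to all 6 arrays with limma 3.58.1 in R 4.3.3, with Benjamini-Hochberg adjustment, and the code was tested on simulated data. The number of arrays limits precision. Named genes were the 15 largest called changes in each direction, up to 3 members of each list, and 5 fixed genes; 96 others were picked with their values in view. The 38 pathway and 15 marker lists were chosen with earlier results of these data known. Alternatives changed the arrays in the fit, the scaling, the probe set rule, the moderation, a filter on low means and a replicate block; centring over all probe sets and leave-one-array-out counts for lists and gaps were added after seeing the data.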

Additional observations from a re-analysis of the deposited data

How the results depend on the processing

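The counts of called genes moved most with the arrays and the error model. In a fit of the 4 compared arrays alone 1355 genes were higher and 1372 lower, as without either brown array, and without empirical Bayes moderation 254 and 301. Leaving out each array in turn gave 899 to 2137 higher and 850 to 2144 lower. Of the 4579 calls, 1639 were kept without white replicate 2. Counting any non-overlap gave 5045 and 6351 genes; the 2-fold gap without 1 array gave 1532 to 2009 and 1610 to 2115. The replicate block gave 1879 higher and 2149 lower; deviations of same-numbered arrays correlated at 0.205, -0.004 and 0.277, so the numbers were not taken to pair the samples. Reversals under leave-one-out, none of a called gene, gave these ranges: H2-Ob -0.38 and Mx1 -0.30 (without the GFP array) to 2.58 and 2.49; Isg20 -0.05 (without white replicate 1) to 0.56; Pparg -0.32 to 0.06 (without white replicate 2); Ifnb1 -0.14 to 0.02 (without the GFP array). Ptprc ranged from -2.23 to 1.02 and Ifnar2 from -0.23 to 0.13, both turning when the LacZ array or white replicate 1 was left out (0.44 and 0.05 for the latter). On the mean of its probe sets Ifnar2 was at 1.21. Rpl4 was at -0.01 after centring on gene medians and -0.14 after centring over all probe sets. The causes were not tested. With 2 arrays a group, a pooled spread carries each test. The 41 named genes that lost their calls in the fit of the 4 compared arrays include Axin2 (adjusted p = 0.052), Maob (0.0507) and Igf2 (0.0544). Tshr (0.0546), Pcca (0.0605), Rbp4 (0.0675) and Acvr1c (0.103) are among them too.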
